A study of Mus musculus with 12 samples.

Results

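The 10 genes described here encode granins and the enzymes that turn prohormones into peptides: Chga, Chgb, Scg2, Scg3, Scg5, Vgf, Resp18, Pcsk1, Pcsk2 and Cpe. They were taken by symbol from 22738 gene rows, and all 10 were found and passed the filter on low counts. The list was chosen with earlier results of these data known. Gene expression was measured by RNA-seq of poly(A) RNA from dissected lung tumours of mice, in 12 libraries. All mice carried Rb1 fl/fl, p53 fl/fl and Myc lsl/lsl T58A alleles, a model of small cell lung cancer known as RPM. Tumours were started in the airway with Ad5CGRP-Cre, an adenovirus in which the promoter of a neuroendocrine peptide gene drives Cre recombinase, which deletes both tumour suppressors and switches on the mutant Myc. The labels give an age of 8 weeks at induction for an initial cohort, and the sources used here do not give the age of these mice at collection. The 4 groups held 3 libraries each. The control group is labelled only as control, so its mice may have had the oral vehicle, the isotype antibody, or both of these. The second group was given anti-PD-1, an antibody that blocks an inhibitory receptor on T cells, at 10 mg/kg for 4 weeks. The third was given entinostat by mouth, a drug that inhibits class I histone deacetylases, at 15 mg/kg daily for 28 days. The combination group received both agents per the library titles, while its treatment tag names the antibody alone.

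Granins are acidic proteins that are packed with peptide hormones into the dense-core secretory granules of endocrine and neuroendocrine cells and neurons. The convertases encoded by Pcsk1 and Pcsk2 cut prohormones after paired basic residues inside the maturing granule, and carboxypeptidase E, the product of Cpe, trims those residues from the new ends. Scg5 encodes the chaperone that Pcsk2 needs to become active. Pulmonary neuroendocrine cells and small cell lung cancer make this machinery, and chromogranin is a routine tissue marker of such tumours.

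Total counts ranged from 31295987 to 54001886 per library, so counting error was small beside the spread between libraries for the 10 genes. Nothing in the labels ties each library to a mouse of its own, so a p-value covers only the spread between these samples. Of 16 neuroendocrine marker genes outside the 10, none was at 0 in any library, which at this depth does not establish tissue identity. Their summed level lay between 2051 and 2831 CPM (counts on a scale common to all libraries, set by the trimmed mean of M values, TMM) in control libraries, between 1593 and 2101 with anti-PD-1, between 1029 and 1508 with entinostat, and between 812 and 1484 with both agents. For Myc the control libraries averaged 80.7 ± 26.3 CPM, those with anti-PD-1 115 ± 44.9, those with entinostat 233 ± 45.9 and those with both agents 192 ± 30.5 (SD over 3). Structural RNAs (Rpph1, Rn45s and Rmrp) took from 7.84% to 13.2% of the counts in the control libraries, from 20.5% to 36.4% with anti-PD-1 and from 15.2% to 19.3% in the 6 libraries with entinostat. In bulk tissue, fewer cells of a type and less RNA per cell cannot be told apart.

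The sequences just upstream of these genes are shown first because 3 of them share an exact motif. RefSeq's table of promoters for the mouse build GRCm38.p6, which differs from the authors' mm9, held a window for 8 of the 10 genes, all but Vgf and Cpe. The 250 bases before each start were searched on both strands. The palindrome TGACGTCA, the full cAMP response element that factors of the CREB family bind, lay upstream of Chgb, Scg2 and Pcsk1, at 72, 68 and 78 bases before the start. It was present in 3 of 8 windows, against 1.55% of 32851 promoter windows of all genes. Each stretch is written 5′ to 3′ on the gene's strand with the motif in capitals, and comes from chr2:132781546-132781601 (plus strand) for Chgb, chr1:79440063-79440118 (minus strand) for Scg2 and chr13:75089755-75089810 (plus strand) for Pcsk1.
Chgb: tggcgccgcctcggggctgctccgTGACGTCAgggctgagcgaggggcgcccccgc
Scg2: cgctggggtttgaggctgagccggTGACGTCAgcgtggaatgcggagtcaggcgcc
Pcsk1: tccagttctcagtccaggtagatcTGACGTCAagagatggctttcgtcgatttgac

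The first 5 letters of that element, TGACG or CGTCA on the other strand, were searched after the full element had been seen. This shorter motif, which overlaps the full one, was in 7 of 8 windows, all but that of Resp18, against 17.8% of all windows. In Chga it lay 44 bases before the start (chr12:102554873-102554925, plus strand). In Scg5 it lay 175 bases before the start, and the whole 250-base stretch is given for Scg5 (chr2:113829092-113829341, minus strand) because this gene differed most clearly between the groups.
Chga: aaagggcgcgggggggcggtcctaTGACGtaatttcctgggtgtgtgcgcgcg
Scg5: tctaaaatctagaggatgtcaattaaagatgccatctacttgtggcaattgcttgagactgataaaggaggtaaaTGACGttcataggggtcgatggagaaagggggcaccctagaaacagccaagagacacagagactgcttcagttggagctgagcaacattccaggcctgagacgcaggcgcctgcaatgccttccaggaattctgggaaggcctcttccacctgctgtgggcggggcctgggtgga

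The E-box CACGTG, the form that MYC favours, was in 0 of 8 windows, against 6.02% of all windows. A match describes the letters only. The 3 genes that share the full element each had their lowest level in combination library 1, as given below. Scg3 and Pcsk2, whose windows lack the element, were also lowest in that library. Whether the element bears on these levels was not tested.

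Levels between genes were compared per kilobase of the longest coding transcript. Averaged over all 12 libraries, Cpe stood highest at 66.8 ± 21.1 CPM per kb, followed by Scg5 at 51.2 ± 35.6, Chga at 33.3 ± 17.1 and Scg3 at 31.3 ± 7.95 (SD, n = 12). Chgb, Pcsk1, Resp18, Pcsk2 and Scg2 followed in that order, from 18.4 ± 15.7 down to 6.81 ± 10.4 CPM per kb, and Vgf was last at 1.71 ± 0.82. No neighbours in this order had ranges that lay apart. Scg3 exceeded Chgb in 11 of 12 libraries and Cpe exceeded Scg5 in 10 of 12, whereas Chga exceeded Scg3 in only 5. This order pools groups that differ in Scg5. In the control group alone Scg5 led, at 92.0 ± 27.2 CPM per kb (n = 3), whereas it was in place 4 with entinostat (25.1 ± 10.1) and with the combination (18.7 ± 3.21), behind Cpe, Chga and Scg3. In the combination group Scg2, at 1.398 ± 1.12 CPM per kb, was last in place of Vgf.

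**Figure D1:**
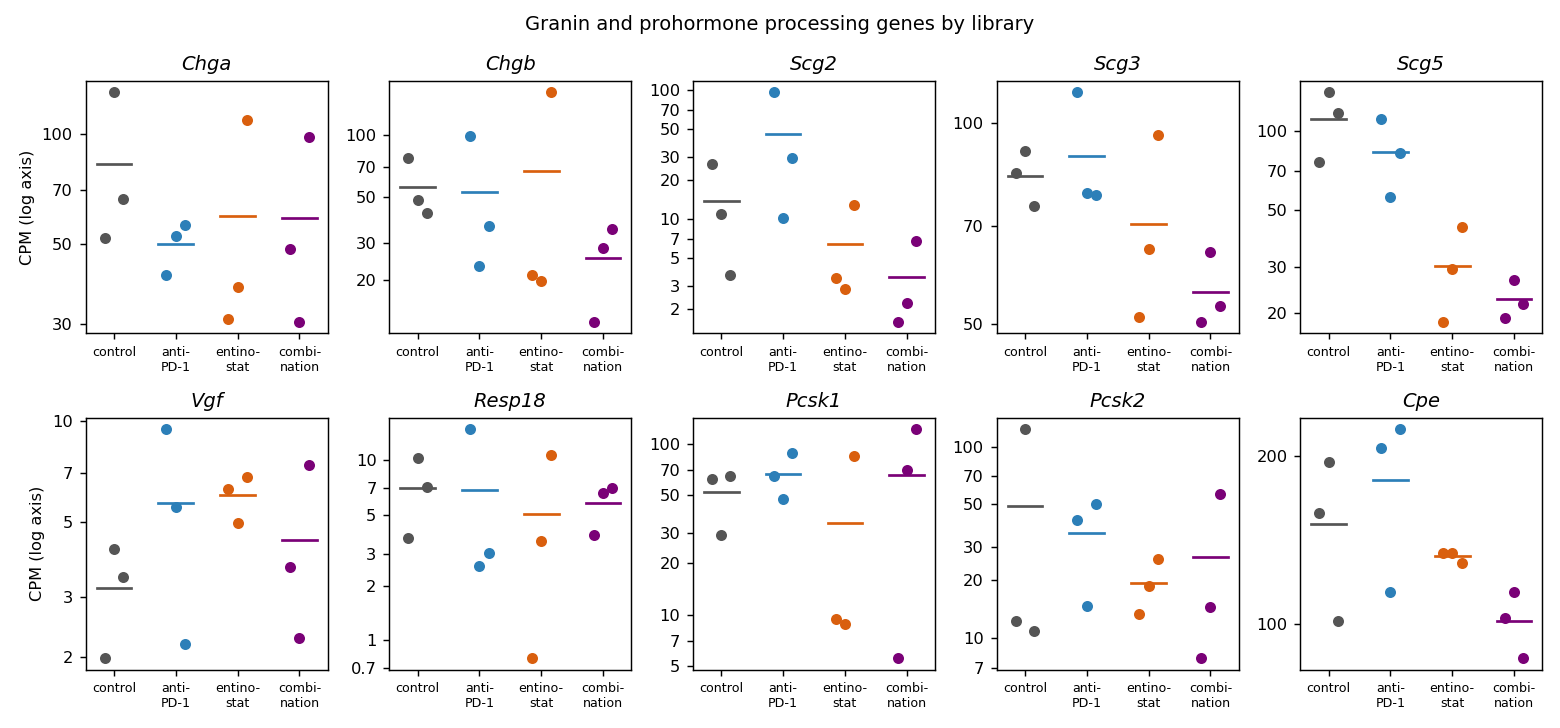
Level of each gene in CPM on a log axis (vertical), by treatment group (horizontal). Points are single libraries in the order of their replicate number and bars are group means of 3. The 6 Scg5 points with entinostat (18.6 to 42.8 CPM) all lie below the 6 without it (55.7 to 141 CPM), while most other genes overlap.

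Scg5, the chaperone of Pcsk2, was lower in every tumour library that had received entinostat. It measured 75.8, 141 and 117 CPM in control libraries 1 to 3, and 112, 55.7 and 82.0 CPM in anti-PD-1 libraries 1 to 3. With entinostat alone it measured 18.6, 29.5 and 42.8 CPM, and with the combination 19.2, 26.9 and 21.8 CPM. The highest library with entinostat, entinostat 3, stood below the lowest without it, anti-PD-1 2. Averaged over libraries with and without the antibody, the entinostat main effect on Scg5 was −1.88 on the log2 scale (SE 0.25, n = 6 and 6; adjusted p = 0.0056 by edgeR's quasi-likelihood test), from 97.1 ± 31.3 to 26.5 ± 9.10 CPM. Every fit that left out 1 library kept this call, with adjusted p from 0.0049 to 0.0234. With the score of the 16 other neuroendocrine markers as a covariate the log2 fold change was −1.22 (adjusted p = 0.066). That fit called 0 of 17426 genes, with 3699 at an unadjusted p under 0.05, and the 16 markers of the score had a median log2 fold change of −0.94 with entinostat themselves. No overlap between the 6 and 6 libraries, in the lower direction, was seen for Scg5 alone among the 10, against 2.32% of all tested genes.

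Of the 10 genes, 2 fell with entinostat in this comparison and 0 rose. Over all 17426 tested genes 10.6% were called, with 3.87% of genes higher and 6.74% lower, and nothing particular to the 10 genes is read from a count of 2. Negative log2 fold changes were more common than calls, with 9 of 10 genes. Among these, Chga, Chgb, Resp18, Pcsk1 and Pcsk2 had 95% intervals that spanned 0. The signs of Chga, Vgf, Resp18 and Pcsk2 turned in at least 1 fit that left out 1 library. The median log2 fold change of the 10 was −0.43 against 0.02 over all tested genes. Under upper quartile scaling these medians were −0.30 and 0.15, an upward shift in both. With the score of the other neuroendocrine markers as a covariate the median of the 10 turned to 0.22, and with the alveolar score it was −0.25. Leaving out 1 library moved it from −0.28 (without entinostat 1) to −0.99 (without entinostat 3). The levels of the other neuroendocrine markers and of alveolar, fibroblast, macrophage and endothelial markers in the same libraries are given after the gene lists below.

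Scg2, secretogranin II, the precursor of the peptide secretoneurin, was the second gene called. It measured 26.4, 10.9 and 3.64 CPM in the control libraries and 95.02, 10.1 and 29.7 CPM with anti-PD-1. Levels were 3.47, 2.87 and 12.8 CPM with entinostat and 1.60, 2.21 and 6.74 CPM with the combination. The groups overlapped, and anti-PD-1 library 1 stood far above every other library. Its log2 fold change for the entinostat main effect was −2.39 (SE 0.67, edgeR adjusted p = 0.045, n = 6 and 6), with a 95% interval from −3.86 to −0.91. The call was kept in 3 of 12 fits that left out 1 library (control 3, anti-PD-1 2 or entinostat 3), with adjusted p up to 0.11 in the others. The log2 fold change was negative in all 12 of these fits, from −2.89 to −1.82. The call also held under 4 of 9 other settings. It was lost under the rest, with an edgeR adjusted p of 0.053 under upper quartile scaling and up to 0.27 among them.

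Scg3, which binds chromogranin A to the cholesterol-rich granule membrane, had the smallest spread of the 10 genes relative to its mean, a coefficient of variation of 25.4% over 12 libraries. It measured 84.0, 90.6 and 74.9 CPM in the control libraries, 111, 78.5 and 77.9 CPM with anti-PD-1, 51.2, 64.6 and 95.7 CPM with entinostat, and 50.3, 63.9 and 53.2 CPM with the combination. Of the 6 libraries with entinostat only entinostat 3 stood within the range of those without it. The entinostat main effect was −0.46 (SE 0.17) with an edgeR adjusted p of 0.099, and it passed only without entinostat library 3 (adjusted p = 0.049).

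The 2 chromogranins did not pass. Chga, the classical tumour marker and precursor of several regulatory peptides, measured 51.9, 129.7 and 66.3 CPM in the control libraries, 41.0, 52.5 and 56.1 CPM with anti-PD-1, 31.1, 37.9 and 109 CPM with entinostat, and 48.2, 30.6 and 97.8 CPM with the combination. Its groups overlapped throughout, and each group with entinostat held 1 library near the top of the whole range. The log2 fold change for entinostat was −0.12, with a 95% interval from −0.93 to 0.69 (edgeR adjusted p = 0.86). Chgb, its close relative in the granule core, measured 78.0, 48.5 and 42.1 CPM in the control libraries, 99.5, 23.3 and 36.4 CPM with anti-PD-1, 21.0, 19.8 and 161 CPM with entinostat, and 12.5, 28.5 and 35.2 CPM with the combination. Entinostat library 3 alone lifted the mean of its group to 67.3 ± 81.2 CPM. For entinostat the interval ran from −1.60 to 0.80.

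Vgf, a precursor of neuropeptides first found as a gene induced by nerve growth factor, was the only gene of the 10 with a positive log2 fold change (0.27, 95% interval from −0.60 to 1.14), and it turned to −0.016 without combination library 3. It was also the lowest expressed, between 1.98 and 9.43 CPM. Resp18, a luminal protein of the neuroendocrine secretory pathway, lay between 0.79 CPM in entinostat library 1 and 14.9 CPM in anti-PD-1 library 1. Its log2 fold change for entinostat was −0.37 with a wide 95% interval, from −1.68 to 0.95.

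Among the processing enzymes the 2 convertases differed widely between libraries of the same group. Pcsk1 measured 62.4, 29.3 and 64.7 CPM in the control libraries, 64.9, 47.2 and 88.1 CPM with anti-PD-1, 9.45, 8.84 and 84.1 CPM with entinostat, and 5.55, 69.8 and 121 CPM with the combination. The 3 lowest libraries all had entinostat, but so did the highest. Pcsk2 measured 12.3, 123 and 10.9 CPM in the control libraries, 41.3, 14.7 and 50.1 CPM with anti-PD-1, 13.3, 18.7 and 25.8 CPM with entinostat, and 7.83, 14.6 and 56.7 CPM with the combination. Control library 2 held the highest level, and the lowest 2 controls lay below every library with entinostat alone. For Pcsk1 the entinostat main effect was −0.32 (95% interval from −1.80 to 1.16, edgeR adjusted p = 0.78). For Pcsk2 it was −0.88 (95% interval from −2.32 to 0.55, adjusted p = 0.39), and 0.16 without control library 2.

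Cpe, which acts after the convertases, was steadier. It measured 158, 195 and 101 CPM in the control libraries, 206, 114 and 223 CPM with anti-PD-1, 134, 134 and 129 CPM with entinostat, and 103, 114 and 86.8 CPM with the combination. The 3 entinostat libraries were nearly equal and lay inside the control range, and the combination group overlapped with the lower end of that range. The entinostat main effect was −0.52 (SE 0.20) with an edgeR adjusted p of 0.105. It passed without control library 3 (adjusted p = 0.046) or without anti-PD-1 library 2 (adjusted p = 0.035).

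**Figure D2:**
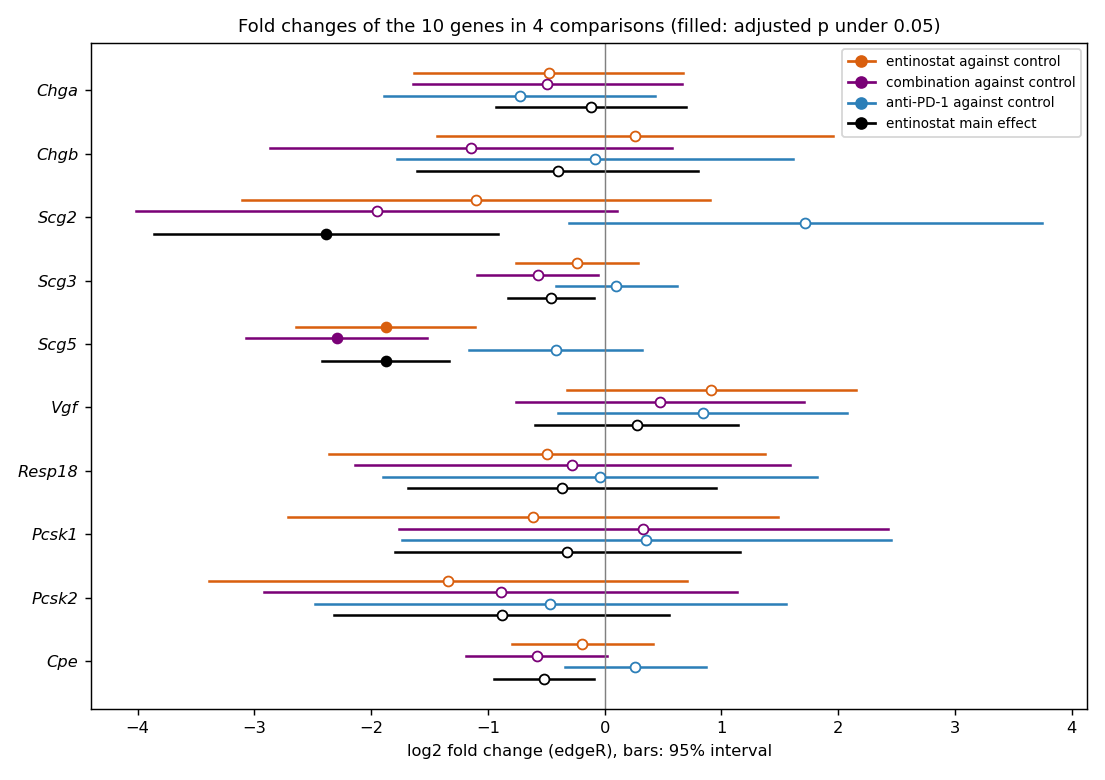
Log2 fold change (horizontal) of each gene (vertical) in 4 comparisons, with 95% intervals as lines. Filled points passed an adjusted p of 0.05, which holds for Scg5 in 3 comparisons and for Scg2 in the entinostat main effect (−2.39). The 3 comparisons against control share the control libraries.

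The treatments were then compared with control one by one, on the same fit. Each of these comparisons uses the same 3 control libraries. With entinostat alone against control 5.27% of all tested genes were called, 1.3% higher and 3.98% lower. Of the 10 genes Scg5 fell, by 1.87 on the log2 scale (SE 0.35, edgeR adjusted p = 0.020, n = 3 and 3). The control and entinostat libraries of Scg5 did not overlap in the lower direction, as for 15.7% of all tested genes, and those of Vgf did not overlap in the higher direction, as for 13.1%. Vgf averaged 3.19 ± 1.11 CPM in control libraries and 6.01 ± 0.93 with entinostat (log2 fold change 0.91, adjusted p = 0.34). Without entinostat library 1, 2 or 3 the Scg5 call was lost, with adjusted p up to 0.079 and log2 fold changes from −2.21 to −1.62. A fit on these 6 libraries alone gave −1.85 (edgeR adjusted p = 0.086) and called 0 genes, with 3513 at an unadjusted p under 0.05.

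With the combination against control 11.7% of all tested genes were called, 3.88% higher and 7.78% lower. Scg5 fell again, by 2.30 on the log2 scale (SE 0.36, edgeR adjusted p = 0.0082, n = 3 and 3), and no other gene of the 10 passed. Chgb, Scg3 and Scg5 did not overlap with control in the lower direction, 3 of 10 against 16.7% of all tested genes. Chgb stood at 56.2 ± 19.1 CPM in the control group and 25.4 ± 11.6 with the combination (log2 fold change −1.15, adjusted p = 0.35). Scg3 stood at 83.2 ± 7.89 and 55.8 ± 7.17 CPM (−0.58, adjusted p = 0.13). A fit on these 6 libraries alone left Scg5 at −2.29 (edgeR adjusted p = 0.054) and called 0 genes, with 4284 at an unadjusted p under 0.05.

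The combination was also set against anti-PD-1 alone, which asks for the effect of entinostat in the presence of the antibody. The control libraries entered only through the filter, the scaling and the shared estimate of the spread. The test called 0 of 17426 genes here, or 0% of the background, with 2168 at an unadjusted p under 0.05, and DESeq2 called 422. Scg2, Scg3, Scg5 and Cpe did not overlap, all lower with the combination, 4 of 10 against 9.25% of all tested genes. Their log2 fold changes were −3.67 for Scg2 (95% interval from −5.87 to −1.47), −0.68 for Scg3, −1.88 for Scg5 (95% interval from −2.64 to −1.11) and −0.84 for Cpe, with edgeR adjusted p from 0.20 to 0.30. Without anti-PD-1 library 1 the value for Scg2 was −2.51. DESeq2 called Scg2 and Scg5 of the 10. The interaction, which tests whether the entinostat effect differed with the antibody, called 0 genes (0%, with 1052 at an unadjusted p under 0.05 and 52 by DESeq2). For Scg5 the difference of the 2 effects was −0.002 with a 95% interval from −1.03 to 1.03. For Scg2 it was −2.57, from −5.42 to 0.28 (edgeR adjusted p = 0.85).

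Anti-PD-1 alone against control called 1 of 17426 genes, 0.00574%, and none of the 10, of which 0 were at an unadjusted p under 0.05 and 0 were called by DESeq2. Scg2 had the largest shift, from 13.6 ± 11.6 to 44.9 ± 44.5 CPM (log2 fold change 1.72, 95% interval from −0.31 to 3.75, adjusted p = 0.41), and the groups overlapped. Scg5 stood at 111 ± 32.8 CPM in the control group and 83.1 ± 28.0 with the antibody (−0.42, 95% interval from −1.16 to 0.32, adjusted p = 0.59). In the main effect of anti-PD-1 over all 12 libraries 0 of 17426 genes were called by edgeR (0%, with 1886 at an unadjusted p under 0.05 and 58 by DESeq2), and the 10 genes had a median log2 fold change of −0.03 against 0.02 for all tested genes.

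Because CPM depends on the scaling between libraries, ratios of counts within a library were taken as well. These pairs were chosen after the values had been seen, so they are given as a description. The counts of Scg5 divided by those of Scg3 were 0.902, 1.55 and 1.56 in the control libraries, 1.01, 0.709 and 1.05 with anti-PD-1, 0.363, 0.457 and 0.447 with entinostat, and 0.382, 0.420 and 0.410 with the combination. All 6 ratios with entinostat lay in a narrow band below the lowest without it. Scg5 over Cpe behaved alike, at 0.368 to 1.16 without and 0.139 to 0.333 with entinostat. The chaperone thus differed between the groups relative to another granin and to the carboxypeptidase in the same library. Relative to Pcsk2, its partner, it did not separate the groups: the ratio was 1.14 to 10.8 without and 0.384 to 2.46 with entinostat.

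**Figure D3:**
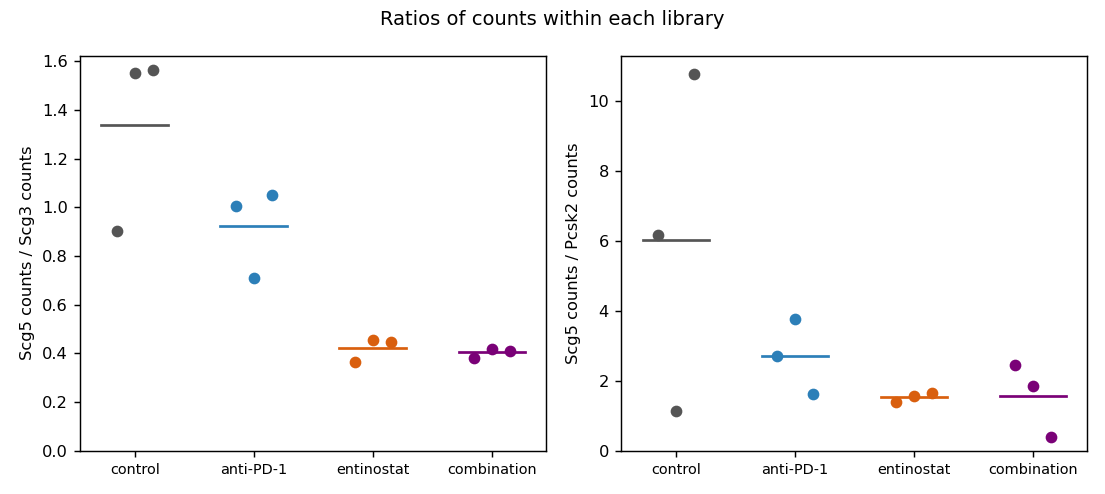
Counts of Scg5 divided by counts of Scg3 (left) and of Pcsk2 (right) in each library (vertical, linear axes from 0), by treatment group (horizontal). Bars are group means of 3 libraries. On the left the libraries with entinostat (0.363 to 0.457) lie below all others (0.709 to 1.56), and on the right the groups overlap.

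The summed level of the 10 genes ran from 255 CPM in combination library 1 to 795 CPM in anti-PD-1 library 1. Combination library 1 held the lowest level of 5 of the 10 genes. Anti-PD-1 library 1 held the highest of 4 and control library 2 the highest of 3. Within the entinostat group, library 3 held the highest level of Chga, Chgb, Scg2, Scg3, Scg5, Vgf, Resp18, Pcsk1 and Pcsk2, but not of Cpe.

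**Figure D4:**
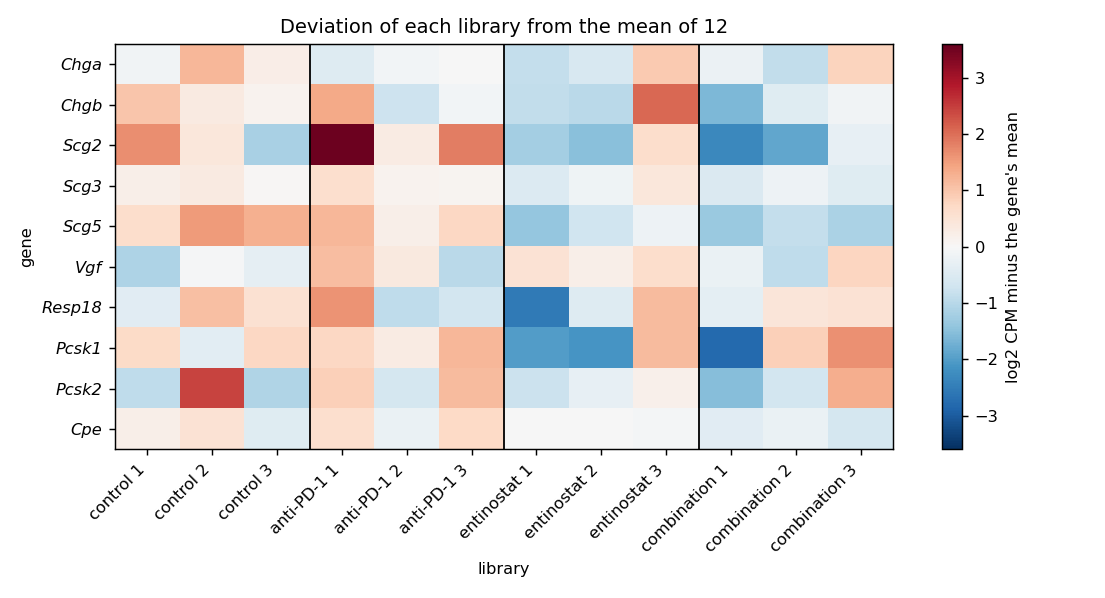
Deviation of log2 CPM (prior count 2) from each gene's mean over 12 libraries, for the 10 genes (rows) in each library (columns), with lines between the treatment groups. Scg5 is below its mean in all 6 libraries with entinostat and above it in the 6 without. Resp18 mixes both colours in every group, and Chga and Pcsk1 do so in every group but anti-PD-1.

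Other genes of the granule and the peptide pathway were read from lists. Of 15 further genes for convertases, peptide-processing enzymes and related proteins 0 passed in the entinostat main effect. Their log2 fold changes were positive for 10, with a median of 0.29. Pam, the enzyme that amidates peptide ends, stood at 219 ± 36.4 CPM without and 141 ± 50.9 with entinostat (n = 6 each, log2 fold change −0.65, edgeR adjusted p = 0.069). Mbtps1, the site-1 protease of the Golgi, stood at 143 ± 28.4 and 152 ± 22.7 CPM. Of 32 genes of the granule membrane, its formation and exocytosis 1 fell and 0 rose, with a median of −0.09, against 6.74% of all genes called lower. The gene that fell was Syt9, a calcium sensor of granule release, at −1.39 (SE 0.39, adjusted p = 0.043), from 19.0 ± 5.02 to 7.26 ± 4.09 CPM. That call was kept in 3 of 12 fits that left out 1 library (control 3, entinostat 3 or combination 3).

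Of the hormones and neuropeptides that such granules carry, 18 were tested, and 1 fell and 1 rose, against 10.6% of all genes called in either direction. The log2 fold changes of the 18 were negative for 14 and positive for 4, with a median of −0.64. Calca, which encodes calcitonin and its gene-related peptide, went from 39.5 ± 37.7 to 5.51 ± 4.79 CPM (log2 fold change −2.75, SE 0.76, edgeR adjusted p = 0.041), a call kept without control 1, anti-PD-1 2 or entinostat 3 but lost without any other library. Gal, which encodes galanin, was called higher at 0.09 ± 0.08 CPM without and 0.79 ± 1.30 CPM with entinostat, a level near 0 in most libraries. Its call was kept only without control 1, combination 1 or combination 2. Of 12 regulators of granule genes 7 were negative, with a median of −0.20, and 1 rose, against 3.87% of all genes called higher. This was Rcor1, which encodes a corepressor that joins histone deacetylases to REST. Rcor1 stood at 21.1 ± 2.91 CPM without and 31.1 ± 1.55 with entinostat (log2 fold change 0.56, SE 0.13, edgeR adjusted p = 0.025). Leaving out anti-PD-1 1, anti-PD-1 3, entinostat 2, entinostat 3 or combination 1 ended that call, with adjusted p up to 0.069. Rest itself, the repressor that keeps neuronal and granin genes off in other cells, was read after its values were seen, at 4.63 ± 3.48 and 9.29 ± 3.40 CPM (log2 fold change 1.16, adjusted p = 0.091).

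Markers of the tumour cells and of other cells were read in the same comparison. Of the 16 neuroendocrine markers outside the 10 genes 3 fell and 0 rose with entinostat, against 6.74% and 3.87% of all tested genes, 15 were negative and the median log2 fold change was −0.94. The 3 were Calca, which the hormone list also holds, Elavl4, a neuronal RNA-binding protein (179 ± 67.4 to 70.9 ± 16.9 CPM, edgeR adjusted p = 0.014), and Uchl1, a neuronal ubiquitin hydrolase (423 ± 190.4 to 188 ± 57.6 CPM, adjusted p = 0.025). The Uchl1 call was lost without anti-PD-1 1, entinostat 2, entinostat 3, combination 1 or combination 3. Of 16 alveolar markers 0 passed, with a median of 0.85, and their summed level was 306 to 983 CPM in control libraries, 342 to 982 with anti-PD-1, 398 to 1451 with entinostat and 273 to 1592 with the combination. Sftpa1, Sftpd and Slc34a2 were at 0 in control library 1. Of 12 fibroblast markers 1 rose (Pdgfra), against 3.87% of all genes called higher, and all 12 were positive with a median of 0.90, with summed levels of 369 to 455, 239 to 938, 732 to 901 and 639 to 1547 CPM in the same order of groups. Of 12 macrophage and monocyte markers 0 passed and 10 were positive, with a median of 0.92 and summed levels of 52.5 to 203, 89.7 to 238, 119 to 294 and 73.3 to 316 CPM. Of 10 endothelial markers 1 rose (Erg) and 9 were positive, with a median of 0.51 and summed levels of 46.7 to 75.9, 65.3 to 89.2, 54.2 to 136.7 and 62.3 to 153 CPM. Of 11 airway and 10 T and B cell markers 0 passed, and of 11 markers of neurons, Schwann cells and muscle 1 rose (Actn2), with medians of −0.28, −0.28 and −0.35. With the alveolar score as a covariate Scg5 still passed, 295 genes were called in all, and Scg2 did not pass (−1.58, adjusted p = 0.12). The alveolar and neuroendocrine markers had medians of 0.85 and −0.94 with entinostat themselves. Fits with these scores therefore cannot tell a change in the mix of cells from an effect of the drug. Scores of fibroblast, macrophage and endothelial markers were not used as covariates. The part of these cell types in the lower Scg5 and Scg2 was not tested.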

How the data were processed

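The authors deposited 1 table of raw counts, with 22738 gene rows and 12 library columns. The submitters' processing notes name the build mm9, the aligner STAR 2.5.4a, the trimmers Trimmomatic 0.36 and Trim Galore, and DESeq2 1.22.2 in R 3.5.1. The sources used here do not give the annotation, the use of strand or the treatment of multi-mapping reads. Between 65.3% and 77.2% of counts from 1 to 20 were even, so mates of a pair may both have been counted, and halved counts were tried. All libraries carry batch label 2. Each of the 66 pairs of libraries differed by more than sampling noise (chi-square over its degrees of freedom at least 33.5).

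The tests used edgeR 4.0.16 in R 4.3.3 (filterByExpr, TMM, 1 mean per group over all 12 libraries, robust quasi-likelihood F test), with Benjamini-Hochberg adjustment over 17426 genes at 0.05 in each of 7 comparisons. A main effect is the mean of an agent's effects without and with the other. DESeq2 1.42.0 was an alternative. A permutation p for 3 against 3 cannot go below 0.1, so the model was used for those comparisons. The same model was used for the main effects, to which that limit does not apply. The members and lists were chosen with earlier results of these data known. All 10 members are named; from other granule lists, up to 4 genes past the threshold, or else the 2 highest expressed. On simulated data with 200 changed genes among 17426, the entinostat main effect recovered 32% of 2-fold and 81.3% of 4-fold changes, with 3.65% of calls false. For entinostat against control these were 8%, 58% and 1.8%.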

Additional observations from a re-analysis of the deposited data

How the results depend on the processing

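Scg5 kept its direction in every alternative run and its call in the entinostat main effect under 8 of 9, with log2 fold changes from −1.91 to −1.22. The number of the 10 genes called there was 2. It was 1 with upper quartile factors, no count filter, the replicate block or the alveolar score, 0 with the neuroendocrine score, and 1 to 3 leaving out 1 library each. Fits on the compared libraries only called 0 of the 10 for entinostat and for the combination against control, in place of 1; leaving out 1 library gave 0 to 1 for entinostat. For the combination against anti-PD-1 DESeq2 called 2 in place of 0.

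Over all genes, DESeq2, which tests fewer or more genes after its own filter, called 2328 for entinostat against control (919 by edgeR), 567 for anti-PD-1 (1), 3607 for the combination (2033), 422 for the combination against anti-PD-1 (0), 3342 for the entinostat main effect (1849), 58 for that of anti-PD-1 (0) and 52 for the interaction (0). Fits on the compared libraries only called 0, 0, 0 and 3 in the first 4. The alveolar score left 295 calls in the entinostat main effect and the neuroendocrine score 0. Upper quartile factors called 561 for entinostat against control, 325 higher and 236 lower against 226 and 693 with TMM. For the combination they called 1100 higher and 611 lower against 677 and 1356, and for the entinostat main effect 1046 and 632 against 674 and 1175. The cause of these differences was not tested.

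Leaving out 1 library each gave 2 to 1002 calls over all genes for entinostat against control, with 2 without entinostat 3, 306 to 2038 for the combination, 0 to 2 for anti-PD-1 and 600 to 2022 for the entinostat main effect.

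The replicate numbers were not taken as pairs in the main fit, and whether they pair the libraries is not settled by these values. Of 18 same-numbered pairs 8 correlated above 0.1 in their deviations (−0.29 to 0.23). Pairs of different numbers ran from −0.31 to 0.39. Of 12 libraries 1 correlated best with its own number, though each library has fewer partners of its own number than of others. With the replicate block the calls were 321 for entinostat against control, 0 for anti-PD-1, 1087 for the combination and 974 for the entinostat main effect.

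Log2 fold changes that turned sign were those of genes that had not passed. Cpe for entinostat against control was 0.0093 with upper quartile factors and −0.42 to 0.029 leaving out 1 library each. In the entinostat main effect the neuroendocrine score gave 0.53 for Chga, 0.58 for Chgb, 1.39 for Resp18 and 0.66 for Pcsk1, and the alveolar score 0.18 for Chgb and 0.16 for Pcsk1. Leaving out 1 library each gave −0.51 to 0.12 for Chga, −0.016 to 0.54 for Vgf, −0.97 to 0.26 for Resp18 and −1.50 to 0.16 for Pcsk2. Changes of 2-fold were mostly missed in simulated data, so genes that did not pass may have changed.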
